A study of Mus musculus with 15 samples.

Results

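Genes of mouse chromosome 2 that lie 20 to 40 Mb from Mertk were examined on both sides of the locus in retinal pigment epithelium (RPE), the pigmented layer that takes up shed photoreceptor outer segments. A gene was a member when the midpoint of its counted exons lay in either window and when its counts summed to at least 80 over the Mertk KO and Mertk WT libraries. The summed count joined both groups, so members were chosen by position and level, and the windows themselves were drawn with earlier results of these libraries known. This gave 292 genes of the 46078 in the table, 85 on the proximal (centromere) side and 207 on the distal side. The windows held 937 genes in all, of which 640 fell short of 80 counts, 403 of these at 0. Just outside the count limit lay Myl9 with 77 counts and A930006I01Rik with 79, and just inside it Matn4 with 86 and 1700003F12Rik with 87. The rule also left out Cat, Pax6, Ctsa, Map1lc3a and Elmo2 by name. Cat, which encodes catalase and lies 25.28 Mb proximal to Mertk, passed the test used here. With it, the proximal counts of genes tested, passing and without overlap would each be 1 higher.

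RNA came from RPE of female mice at postnatal day 14, collected from 2 h after light onset. Mertk KO (n = 4) and Mertk WT (n = 4) libraries were compared, and Bai1 Tg pos (n = 3) and Bai1 Tg neg (n = 4) libraries, all of Mertk WT genotype, served as a second set. The strain label was the same for every sample, a mix of c57Bl/6J with B6;129-Mertktm1Grl/J, and it does not say which strain's chromosome 2 each animal carried. Tg marks a Bai1 transgene, whose promoter the labels do not name. The number that labels each library began with 12 in all Bai1 libraries, 21 in KO 4 and WT 4, and 17 in the other Mertk libraries. What that number stands for is not stated. The labels do not tie each library to an animal of its own either, so p-values here measure how far these libraries spread, which may be technical.

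Mertk is a receptor tyrosine kinase by which RPE recognises phosphatidylserine on shed outer segments, through the bridging ligands Gas6 and Protein S. A knockout allele made in 129-derived embryonic stem cells and crossed to another strain stays joined to a stretch of 129-derived chromosome, whose ends are set by where meiotic recombination took place. Genes inside such a flanking stretch can carry strain variants of their own and can differ between knockout and wild-type animals whether or not they respond to the lost gene. In the present samples such linkage and an effect of Mertk loss cannot be told apart, because genotypes at Mertk and at linked positions may differ together.

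Library totals ran from 9591129 to 20024507 counts. Mertk read 178 ± 18.9 CPM (counts scaled to 1000000 a library; errors are SD) in KO and 246 ± 13 in WT, a log2 fold change of -0.48 with an adjusted p of 0.0461. The call was lost in 9 of 16 other fits, namely the replicate block (adjusted p = 0.099) and each fit that left out 1 library (adjusted p from 0.0546 to 0.228), with estimates from -0.52 to -0.41. This gene-level count does not show which exons were read. The library labelled Bai1 Tg neg 4 held 2875 counts of Adgrb1, the Bai1 gene, against 0 to 2 in the other Bai1 Tg neg libraries. RPE markers were high in both groups, with a summed level of 42400 to 46000 CPM in KO and 43700 to 49000 in WT, and Rpe65, the retinoid isomerase, read 4560 ± 263 and 5370 ± 1010 CPM. Rod photoreceptor markers summed to 987 to 1630 CPM in KO and 905 to 3710 in WT, with WT 2 and WT 3 highest by mean log2 level. Of the 12 rod markers 11 were lower in KO by estimate and 0 passed the test. The 7 endothelial markers summed to 7.02 to 10.9 CPM in KO and 12.2 to 19.9 in WT. The 7 macrophage markers summed to 665 to 743 and 637 to 704 CPM, and no marker in any list was at 0 in all 8 libraries.

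Most genes in the windows had small estimated differences, and a few stood far apart. Of the 292 members, 285 passed the filter on low counts and were tested, 84 proximal and 201 distal. With edgeR's quasi-likelihood test, adjusted over all 13447 genes, 3 members passed an adjusted p of 0.05. Ldlrad3 and Acss2 were lower in Mertk KO and Prr5l was higher. That is 1.05% of the members tested, against 0.223% of all genes tested, 2.38% (2 of 84) on the proximal side and 0.498% (1 of 201) on the distal side. Levels of KO and WT did not overlap for 14 members (4.91%), 7 higher and 7 lower in KO, where the share over all genes was 3.52%. An unadjusted p under 0.05 was reached by 18 members (6.32%), near the 5.58% over all genes. The median log2 fold change of the members was -0.001, the same as over all genes, and the median size without sign was 0.109 against 0.116, with 257 of the 285 under 0.5.

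**Figure D1:**
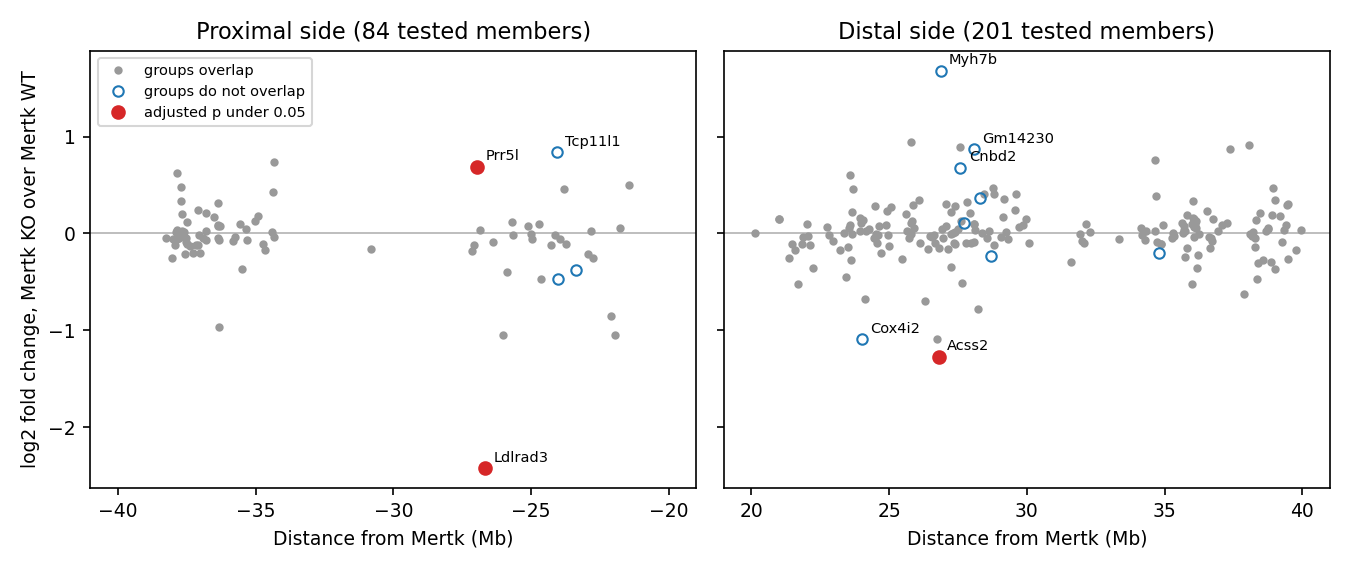
Log2 fold change, KO over WT (vertical axis) against distance from Mertk in Mb (horizontal axis, negative on the proximal side) for the 285 tested members, 1 point a gene. Red points passed the adjusted test (Ldlrad3, Prr5l and Acss2, at 26.68, 26.95 and 26.80 Mb), open blue circles are genes whose KO and WT libraries did not overlap, and grey points are the rest.

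Ldlrad3, a membrane protein with LDL-receptor class A repeats that binds ubiquitin ligases of the Nedd4 family, had the largest fall among the members (2:101950203-102186385, minus strand, GRCm38, 26.68 Mb proximal to Mertk). Its level was 1.24, 1.81, 1.38 and 1.41 CPM in KO 1 to 4 and 10.4, 8.01, 6.94 and 5.72 CPM in WT 1 to 4. The KO libraries lay together and each was below the lowest WT library. The means were 1.46 ± 0.247 and 7.76 ± 1.97 CPM, so KO held 18.8% of the WT level, a log2 fold change of -2.42 (SE 0.253, 95% interval -2.96 to -1.87, adjusted p = 0.000966). Counts behind the KO values were 20 to 27 a library. In these bulk samples, fewer cells that express a gene and less RNA per cell cannot be told apart. The 7 Bai1 libraries, in which Mertk is wild type, read 3.9 to 9.83 CPM, all above every KO library. Ldlrad3 passed in all 16 other fits of this contrast, with adjusted p-values from 5.97e-14 to 0.0136.

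Prr5l, a partner of the mTORC2 kinase complex also called Protor-2, lies next to Commd9 and Ldlrad3 and rose (2:101714285-101883027, minus strand, 26.95 Mb). It read 76.1, 65.7, 72.8 and 77.6 CPM in KO 1 to 4 and 51.5, 42.3, 38.8 and 48.0 CPM in WT 1 to 4, with no overlap. The means were 73.0 ± 5.31 and 45.2 ± 5.67 CPM, a log2 fold change of 0.69 (SE 0.103, 95% interval 0.47 to 0.91, adjusted p = 0.0128). Bai1 libraries read 26.6 to 54.8 CPM, again all on the WT side of the KO range. The call was lost when all 15 libraries entered 1 fit (adjusted p = 0.0629) and without KO 1, KO 4 or WT 3 (adjusted p up to 0.0683), while the estimate stayed positive in each of the 16 other fits.

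The genes around this pair did not pass, and most of the nearest had small estimates. Traf6, a ubiquitin ligase of innate immune signalling 0.109 Mb from Prr5l, read 38.9 ± 2.74 CPM in KO and 41.9 ± 5.38 in WT (log2 fold change -0.12). Estimates were 0.04 for Commd9, which lies between the pair, -0.09 for the ubiquitin ligase Trim44, -0.18 for B230118H07Rik and 0.12 for Pdhx, a subunit of the pyruvate dehydrogenase complex. Between Trim44 and Pdhx, Slc1a2 had an estimate of -1.05 (adjusted p = 0.624) and Cd44, a hyaluronan receptor that read 0.83 ± 0.331 CPM in KO and 1.08 ± 0.59 in WT, -0.40 (adjusted p = 0.921). The midpoints of Ldlrad3, which fell, and Prr5l, which rose, were 0.27 Mb apart. Cat, left out of the members, read 525 ± 28.3 CPM in KO and 747 ± 10.3 in WT (log2 fold change -0.52, adjusted p = 0.00457).

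Acss2, the cytosolic and nuclear enzyme that makes acetyl-CoA from acetate, fell on the distal side (2:155517948-155585724, plus strand, 26.80 Mb). It read 8.16, 10.4, 8.45 and 8.90 CPM in KO 1 to 4 and 19.4, 16.9, 21.7 and 28.5 CPM in WT 1 to 4. Every KO library was below every WT library, and the 7 Bai1 libraries, at 14.9 to 25.6 CPM, were above the KO range as well. The means were 8.98 ± 1.00 and 21.6 ± 4.97 CPM, so KO held 41.5% of the WT level, a log2 fold change of -1.27 (SE 0.169, 95% interval -1.63 to -0.91, adjusted p = 0.00484). It passed in all 16 other fits, with an adjusted p of at most 0.0354. Of its 10163 exonic bases, 395 are shared with Gss, 197 with Ggt7 and 335 with Acss2os, all on the opposite strand, and reads there could not be assigned by strand.

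Of the genes beside Acss2 that are members, none passed, and most had small estimates. The largest was that of Myh7b, 0.071 Mb away, at 1.68 (adjusted p = 0.579), on few counts but with groups that did not overlap. Gss, glutathione synthetase, had an estimate of -0.15, the transcriptional coactivator Ncoa6 -0.10, Trpc4ap 0.05 and Edem2, a mannosidase-like factor of ER quality control, -0.05. Trp53inp2, a regulator of autophagy, read 433 ± 20 CPM in KO and 436 ± 23.5 in WT. Ggt7, of the gamma-glutamyltransferase family, read 1.06 ± 0.596 and 2.22 ± 0.587 CPM (log2 fold change -1.09, adjusted p = 0.765), at levels of few counts.

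**Figure D2:**
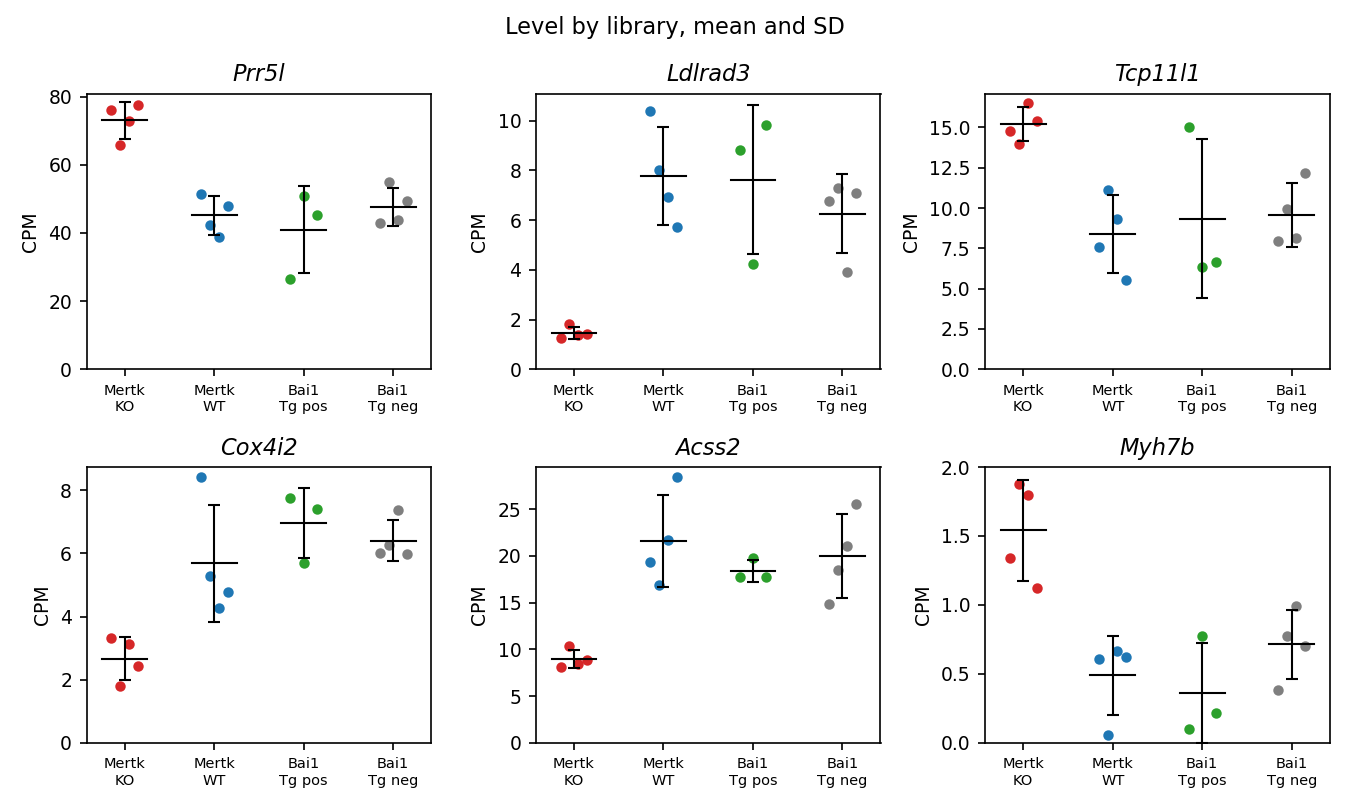
CPM of 6 members in every library (points), by group, with the group mean (long bar) and SD (whiskers); each vertical axis starts at 0. Prr5l and Myh7b are higher, and Ldlrad3, Cox4i2 and Acss2 lower, in all 4 Mertk KO libraries than in the 11 libraries with wild-type Mertk, while 1 Bai1 library reaches the KO range of Tcp11l1.

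Setting KO against all 11 libraries with wild-type Mertk used the Bai1 set as a wider reference, a comparison added after the data were seen. KO lay outside the whole range of these 11 for 5 members (1.75%), namely Ldlrad3, Prr5l, Acss2, Cox4i2 and Myh7b, against 1.05% of all genes tested. The count was the same without Bai1 Tg neg 4. The Bai1 libraries differed from the Mertk libraries in their library number and had rod markers of only 206 to 796 CPM. Setting KO against them therefore also compares sets. Cox4i2, an isoform of a cytochrome c oxidase subunit, read 3.33, 1.81, 3.12 and 2.42 CPM in KO 1 to 4 and 8.41, 5.29, 4.27 and 4.79 CPM in WT 1 to 4 (log2 fold change -1.09, SE 0.284, adjusted p = 0.335). The summed endothelial markers did not overlap between KO and WT either, though only 2 of the 7 had enough counts to be tested. Unlike Cox4i2, they did not set KO apart from the Bai1 libraries. Sums there were 10.1 to 15.3 CPM in Tg pos and 10.4 to 15.8 in Tg neg, against 7.02 to 10.9 in KO. Smooth muscle and pericyte markers did overlap, at 300 to 363 CPM in KO and 292 to 327 in WT. The part of such cells in the Cox4i2 value was not tested. Myh7b, a slow-type myosin heavy chain, read 1.34, 1.88, 1.80 and 1.12 CPM in KO and 0.605, 0.0545, 0.668 and 0.624 CPM in WT (log2 fold change 1.68, SE 0.548, adjusted p = 0.579). The WT values rest on 1 to 10 counts a library, and 37 exonic bases are shared with Trpc4ap on the other strand, which is far more abundant.

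Other members had non-overlapping groups or small p-values and did not pass the adjusted test. Tcp11l1, 24.07 Mb proximal, read 14.8, 14, 16.5 and 15.4 CPM in KO 1 to 4 and 7.6, 11.1, 9.35 and 5.52 CPM in WT 1 to 4. Its log2 fold change was 0.84 (SE 0.185, adjusted p = 0.156), and the Bai1 libraries spread from 6.36 to 15.0 CPM, into the KO range. It passed with DESeq2, with no low-count filter, with a rod marker covariate and without WT 2, at an adjusted p as low as 0.00648. Rcn1, a calcium-binding protein of the endoplasmic reticulum, read 35.8 ± 4.08 CPM in KO and 46.4 ± 3.91 in WT, without overlap (log2 fold change -0.38, adjusted p = 0.38). Raly, an RNA-binding protein of the hnRNP family on the distal side, read 262, 314, 300 and 294 CPM in KO and 218, 263, 225 and 213 CPM in WT. Its groups met at KO 1 and WT 2 (log2 fold change 0.34, adjusted p = 0.297), and DESeq2 gave an adjusted p of 0.0465.

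Src, the founding non-receptor tyrosine kinase, read 160, 195, 183 and 168 CPM in KO and 210, 200, 207 and 211 CPM in WT (log2 fold change -0.23, adjusted p = 0.624). The 2 groups did not overlap, but Bai1 libraries with wild-type Mertk went down to 164 CPM, inside the KO range. Cnbd2, a protein with a cyclic nucleotide-binding domain, read 6.93, 7.72, 8.79 and 6.60 CPM in KO and 4.44, 5.56, 4.81 and 3.75 CPM in WT (log2 fold change 0.68, adjusted p = 0.417). Its value is uncertain, because part of its transcripts has near-identical copies elsewhere, among them 351 bases in Cep85 at 99.7% identity. Cnbd2 also shares 307 exonic bases with Scand1 (813 counts) and 526 with Gm14252 (25 counts), both on the opposite strand. Near-identical copies were also found for parts of Ndrg3, Tspan18, Itch and Ptprj. Exons of Psmc3, Cep250 and Raly overlap other genes as well, Cep250 by 1149 bases with 6430550D23Rik. Non-overlapping groups were also seen for Gm14230 (0.87 on the log2 scale, adjusted p = 0.579) and Soga1 (0.37, adjusted p = 0.905). The same held for Epb41l1 (0.11, adjusted p = 0.905), a membrane skeleton protein, and Depdc7 (-0.47, adjusted p = 0.909).

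Steps of 5 Mb showed where along the chromosome such members lay. From 20 to 30 Mb, both sides together, 148 members were tested, 3 passed, and 13 (8.78%) had groups that did not overlap. From 30 to 40 Mb 137 were tested, 0 passed, and 1 (0.73%), Hnf4a, did not overlap. Unadjusted p-values under 0.05 came to 10.1% in the nearer part and 2.19% in the farther one, against 5.58% over all genes. Within the nearer part, the proximal steps from 20 to 25 Mb and from 25 to 30 Mb each had 16.7% of members without overlap (3 of 18 and 2 of 12). On the distal side the share was 2.17% (1 of 46) from 20 to 25 Mb and 9.72% (7 of 72) from 25 to 30 Mb, so it did not decline steadily with distance. The steps hold few genes, and differences between them were not tested.

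**Figure D3:**
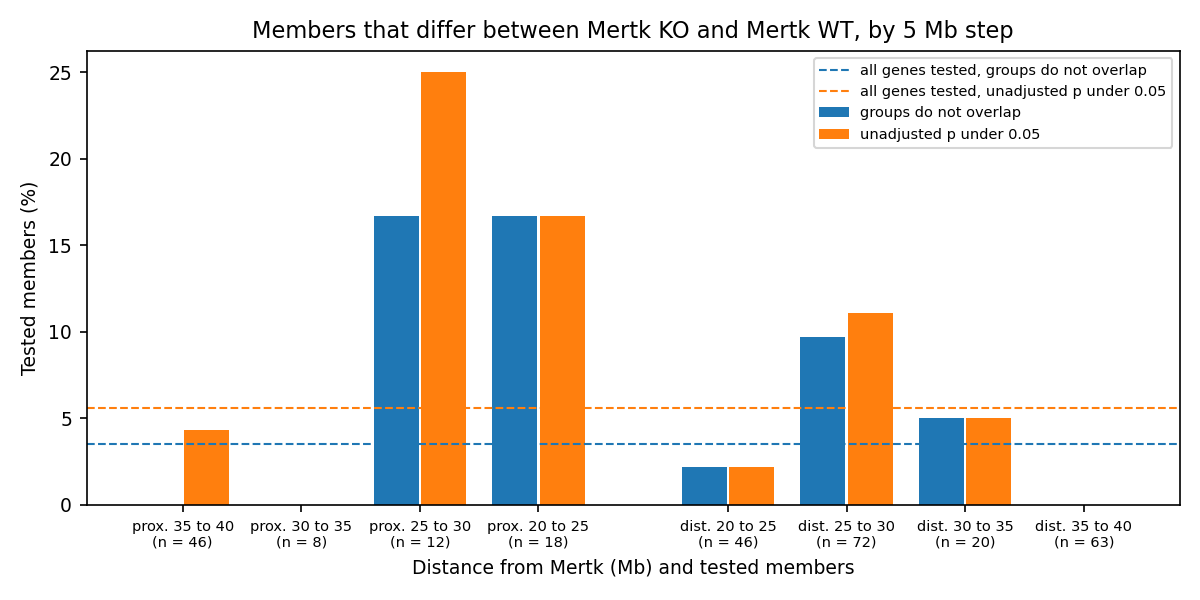
Percent of tested members (vertical axis) whose KO and WT levels did not overlap (blue) or whose unadjusted p was under 0.05 (orange), in 5 Mb steps from Mertk (horizontal axis, tested members in brackets); dashed lines give the same shares over all genes tested, 3.52% and 5.58%. The proximal steps from 20 to 30 Mb and the distal step from 25 to 30 Mb stand above both lines, and the outermost distal step holds none of either kind.

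The farthest member that passed was Prr5l at 26.95 Mb on the proximal side and Acss2 at 26.80 Mb on the distal side. Beyond them 56 proximal and 133 distal members were tested, with smallest adjusted p-values of 0.543 (Tspan18) and 0.417 (Cnbd2). No member beyond 30 Mb passed in any of the 17 fits, where the lowest adjusted p was 0.0675. For 113 of the 137 members there, the 95% interval of the log2 fold change lay within 1 of 0, and for 83 within 0.5. Changes smaller than these bounds could be missed, and in the remaining members larger ones could be too. Nearer in, 25 proximal and 67 distal tested members lay between the inner edge and the nearest member that passed, without passing themselves. Cat, left out by name, did pass within that proximal stretch, at 25.28 Mb. For reference, within 20 Mb of Mertk 14 of 250 tested genes passed (5.6%) and 37 (14.8%) had groups without overlap, Mertk included. On chromosome 2 beyond 40 Mb 0 of 534 passed, by edgeR, with 35 at an unadjusted p under 0.05 and 24 (4.49%) without overlap, and on other chromosomes 12 of 12272 passed (0.0978%) and 389 (3.17%) did not overlap.

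Of the members beyond 30 Mb, Hnf4a, a nuclear receptor that controls hepatic and epithelial genes, read 86.4, 78.9, 87.4 and 85.8 CPM in KO and 98.5, 95.7, 95.1 and 97.7 CPM in WT (log2 fold change -0.20, adjusted p = 0.688). The difference was small beside the Bai1 libraries, which ran from 73.9 to 103 CPM. Tspan18, a tetraspanin, read 38.6 ± 4.94 CPM in KO and 49.7 ± 7.14 in WT (log2 fold change -0.37, adjusted p = 0.543), and Rapsn, which clusters acetylcholine receptors at synapses, 60.2 ± 2.04 and 47.9 ± 9.38 CPM (0.33, adjusted p = 0.758). At the outer edges, Ptprj, a receptor tyrosine phosphatase 38.24 Mb away, had a log2 fold change of -0.05, and Atp9a, a lipid flippase 39.94 Mb away, 0.04. At the inner edges, the potassium channel Kcna4 at 21.46 Mb had 0.50 (adjusted p = 0.905) and Cst3 at 20.12 Mb 0.00.

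The 3 members of each side with the highest level per exon length had log2 fold changes between -0.07 and 0.10. Cst3, cystatin C, a protease inhibitor that RPE secretes, had the highest level per length of any member (7570 FPKM in WT, CPM divided by exon length in kilobases) and read 9640 ± 1100 CPM in KO and 9580 ± 627 in WT. Pltp, phospholipid transfer protein (596 FPKM), read 1650 ± 182 and 1530 ± 159 CPM, and 495 of its exonic bases are shared with Ctsa. The tetraspanin Cd82 (178 FPKM) read 512 ± 8.06 and 534 ± 27.7 CPM, and the growth factor midkine, Mdk (170 FPKM), 230 ± 15.1 and 226 ± 39 CPM. Syndecan Sdc4 (153 FPKM) had a log2 fold change of -0.00 and the proteasome ATPase Psmc3 (52.9 FPKM) 0.03.

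The functional lists, chosen with earlier results known, held all 3 members that passed, in 2 of the lists. Over all genes tested, 0.223% passed and 6687 of 13447 had an estimate above 0. No list was tested as a set. List headings are broad, and some genes, such as Harbi1, Zfp408 and Slc2a10, do not match theirs closely. Of 14 tested proximal genes of ubiquitin, autophagy and stress signalling, 1 rose (Prr5l) and 1 fell (Ldlrad3), and 12 did not pass. None of 14 genes of nuclear transport, splicing and translation passed, with a median log2 fold change of -0.06 and 2 above 0; Nup160, a nuclear pore subunit, read 28.2 ± 4.19 and 33.4 ± 5.59 CPM (-0.25), and Zfp408 20.7 ± 1.46 and 17.4 ± 2.15 CPM (0.24). The 13 mitochondrial and metabolic enzymes had a median of 0.03 with 0 passing, led by Accs (0.18) and Ext2, a heparan sulfate polymerase (0.13). The 9 surface receptors and adhesion genes had a median of -0.20 with 0 passing. Among them Slc1a2, a glutamate transporter of glia and some neurons, read 6.07, 2.89, 2.98 and 2.65 CPM in KO and 5.11, 9.32, 11.1 and 4.47 CPM in WT (-1.05, adjusted p = 0.624). It was highest in WT 2 and WT 3, the libraries with most rod transcripts. Its estimate was -0.70 when rod marker level entered as a covariate (adjusted p = 0.79). The Bai1 libraries, with rod markers at 206 to 796 CPM, read 3.92 to 8.93 CPM. The part of rod RNA in the Slc1a2 value was not tested. Cd59a, an inhibitor of the complement attack complex, read 19.4 ± 3.54 and 26.8 ± 5.75 CPM (-0.47, adjusted p = 0.688). All 4 tested genes of the transcription factor list had estimates below 0 (median -0.14, 0 passing), including the oxysterol receptor Nr1h3 at -0.21. Harbi1, in that list without being an established transcription factor, had -0.20, and 0.02 without WT 2.

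On the distal side, 1 of 20 genes of acetyl-CoA, glutathione and methionine metabolism fell (Acss2), 0 rose, and the median was -0.06. Of 33 genes of transcription, chromatin and RNA binding 0 passed, where 0.223% of all genes tested did, with 17 above 0 and a median of 0.01. The 16 kinases, phosphatases and signalling genes had a median of -0.02 with 0 passing; Itch, a Nedd4-family ubiquitin ligase that Ldlrad3 binds, read 66.1 ± 4.88 CPM in KO and 73.6 ± 7.19 in WT (-0.16, adjusted p = 0.905). The 19 genes of vesicle traffic, cytoskeleton and cell division had a median of -0.05 with 0 passing. In that list Ndrg3 read 12.5 ± 3.24 and 21.2 ± 10.3 CPM (-0.78, adjusted p = 0.893), and was highest in WT 2 and WT 3, as the rod markers were. With the rod marker covariate its estimate was -0.36 (SE 0.148, adjusted p = 0.899). The Bai1 libraries read 5.98 to 12.4 CPM, and the part of rod RNA in the Ndrg3 value was not tested. The centrosomal protein Cep250 read 45.6 ± 2.04 and 58.0 ± 16.4 CPM (-0.35, adjusted p = 0.905), with WT 2 below every KO library and WT 1, 3 and 4 above them. Of 6 secreted inhibitors, proteases and matrix genes 0 passed; the heparan sulfatase Sulf2 read 4.54 ± 2.09 and 2.53 ± 1.58 CPM (0.87, adjusted p = 0.9), and the glucose transporter Slc2a10 5.56 ± 0.914 and 5.00 ± 0.582 CPM (0.15). The imprinted gene Nnat, neuronatin, read 2.10 ± 0.956 and 1.56 ± 0.862 CPM (0.41, adjusted p = 0.914).

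**Figure D4:**
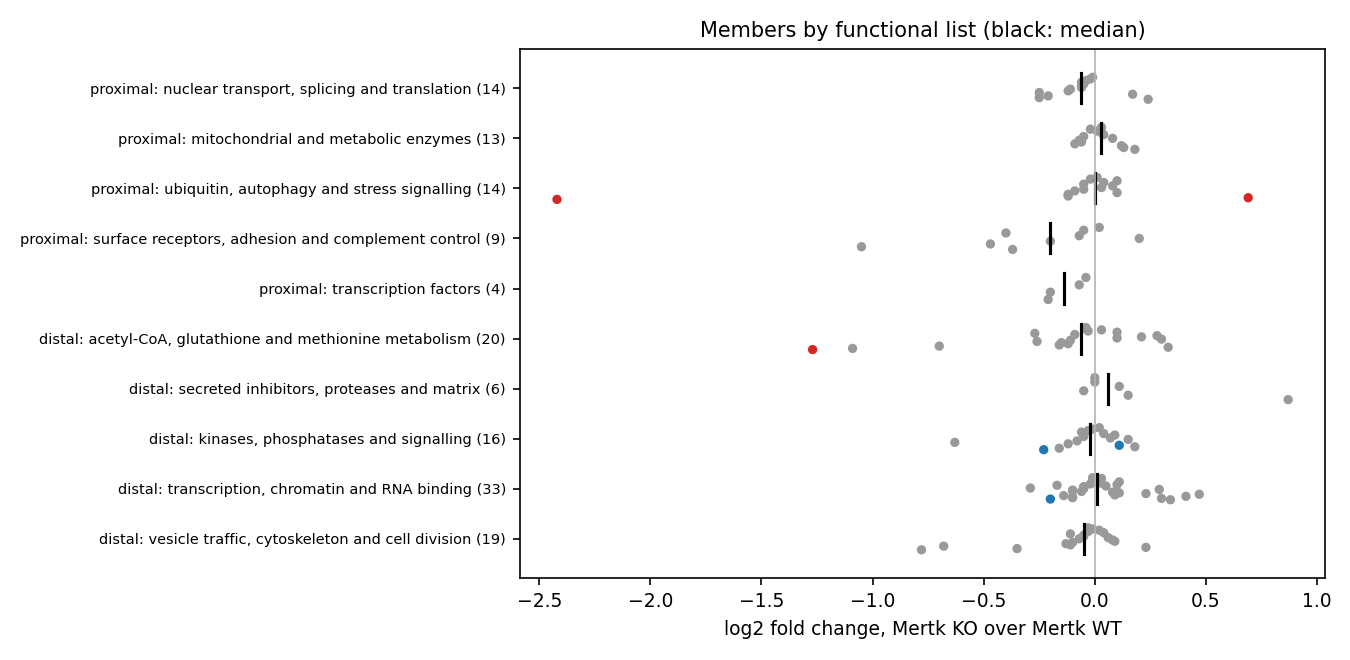
Log2 fold change, KO over WT (horizontal axis) for tested members by functional list (vertical axis, number tested in brackets); red points passed the adjusted test, blue points did not pass but had groups that did not overlap, and black bars are medians. The medians of the 10 lists shown lie between -0.20 and 0.06, with Ldlrad3, Prr5l and Acss2 as the red points; the list of pigmentation and imprinted genes, with 1 tested member, is not drawn.

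Other tools called few further members. DESeq2 called 5 members (Ldlrad3, Prr5l, Tcp11l1, Acss2 and Raly) where 0.551% of all genes passed. Limma-voom with quality weights called the same 3 as edgeR, at a background of 0.216%. Without a filter on low counts the 3 and Tcp11l1 passed (background 0.291%), and the same 4 with a rod marker covariate (0.26%). With all 15 libraries in 1 fit Ldlrad3 and Acss2 passed (0.303%).

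In the Bai1 libraries, which share wild-type Mertk and did not enter the 8-library fit, no member passed between transgene labels. Of 286 members tested with edgeR, 0 passed, against 0.0144% of all genes, and 11 (3.85%) had an unadjusted p under 0.05, against 5.18%. DESeq2 also called 0. The smallest adjusted p was 0.948, for Nol4l. For the 3 genes that differed by Mertk genotype, the log2 fold change of Bai1 Tg pos over Bai1 Tg neg was 0.28 (SE 0.301) for Ldlrad3, -0.21 (SE 0.189) for Prr5l and -0.12 (SE 0.166) for Acss2. Without the library labelled Bai1 Tg neg 4, 284 members were tested and 0 passed, with 10 at an unadjusted p under 0.05.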

How the data were processed

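Per the labels' protocols, poly-A RNA of mouse RPE was made into Illumina TruSeq libraries. STAR and the GRCm38 build are named in the submitters' processing notes. The deposited table holds whole-number counts per gene, made by the authors with featureCounts 1.5.0 per the file headers, with no strand option set. The version of STAR and the release of the annotation were not stated there. Gene symbols came from GENCODE M21 for 45143 genes.

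Mertk KO and Mertk WT libraries were compared by edgeR 4.0.16 (R 4.3.3; TMM scaling, filterByExpr with a minimum count of 10, robust quasi-likelihood F test, two-sided) across all genes, adjusted by Benjamini-Hochberg, threshold 0.05. The test was checked on simulated counts. CPM use TMM-scaled library sizes over all 15 libraries; FPKM divide by exon length. For a library, 3 counts come to 0.1498 to 0.3128 CPM before scaling; counting error is larger for low members such as Myh7b. Alternatives were DESeq2 1.42.0, limma 3.58.1 (voom), other scaling, no filter, covariates, a replicate block and leaving out libraries. No 2 libraries of a group agreed within sampling noise.

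Members and functional lists were chosen with earlier results of these data known. Named genes were those passing, the 6 smallest p on each side among the rest, the 3 highest FPKM a side, the 2 smallest p in each list, and the genes nearest each window edge. Non-overlapping members, neighbours of the genes that passed, and the pseudogenes and variable genes of the closing section were named after their values were seen. Transcripts of named genes were searched for copies with blastn at 95% identity over 150 bases or more. Members not tested for low counts were Cd59b, Gm14121, Gins1, Gm14494, Tgm2, Snhg11 and Gm14268.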

Additional observations from a re-analysis of the deposited data

Results flagged for a closer look

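Among 38 named members, 114 groups of 4 libraries were checked for 1 library far from the other 3, and 7 were marked; chance marks about 1 in 20. Several of the marks fell in Bai1 Tg neg 3. Ldlrad3 read 3.9 CPM there against 6.78 to 7.27 in the other Bai1 Tg neg libraries, Cst3 read 11100 CPM against 8910 to 9100, and Atp9a read 120 CPM against 98.4 to 102. The low Ldlrad3 value was still above all 4 Mertk KO libraries. Ggt7 read 2.5 CPM in the library labelled Bai1 Tg neg 4, against 1.25 to 1.39. In Mertk KO 1, Slc1a2 read 6.07 CPM against 2.65 to 2.98 in the other KO libraries, and Cep250 read 42.6 CPM against 46.4 to 47.0. Myh7b read 0.0545 CPM in Mertk WT 2, which is 1 count, against 0.605 to 0.668 in the other WT libraries.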

How the results depend on the processing

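Counts of members that passed moved with settings, on a base of 2 proximal and 1 distal. With all 15 libraries in 1 fit the proximal count was 1, and with DESeq2 the distal count was 2. Leaving out 1 library gave 1 to 3 proximal members (1 without KO 1, KO 4 or WT 3, where Prr5l was lost; 3 without WT 2, where Tcp11l1 was added) and 1 to 2 distal members (2 without WT 2, where Cep250 was added at an adjusted p of 0.0246). Members with groups that do not overlap came to 6 to 13 proximal and 11 to 17 distal with 1 library left out, when fewer libraries had to be apart and the share over all genes was 5.24% to 9.61%. In the Bai1 contrast 0 members passed in each alternative run. For the fold changes of named genes, 605 gene-and-setting values kept their side of the threshold, 13 were weaker (Mertk and Prr5l) and 6 stronger. The sign turned in 24 of the 605, for Harbi1, Mdk, Cst3, Sdc4 and Atp9a, none of which passed in any fit. The replicate numbers gave no clear pairing of the samples. Correlations of same-numbered KO and WT libraries were -0.148, -0.033, 0.18 and 0.267, within the range of the other KO and WT pairs (-0.237 to 0.276). The highest of the same-numbered values was for KO 4 and WT 4, whose library numbers both begin with 21. With the replicate block the same 2 proximal and 1 distal members passed, and 0 in the Bai1 contrast. No setting moved the median log2 fold change of all genes beyond 0.009 in size.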

Other observations

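Some members varied from library to library with high values in libraries of both Mertk genotypes, and these were picked after their values were seen. Gm14494 (2:153826171-153826605), a pseudogene with 435 bases at 99.54% identity to Tomm20, was highest in Mertk KO 3 (32.3 CPM), next in Mertk WT 1 (12.3 CPM), and between 0.2 and 1.37 CPM in the remaining 13 libraries. Gm14121, with 1358 bases at 98.233% identity to Btbd1, was high in Mertk KO 2 (7.52 CPM) and Mertk WT 4 (6.87 CPM) and between 0.161 and 0.531 CPM in the remaining 6 libraries of the Mertk contrast. Its level in the 3 Bai1 Tg pos libraries was 4.61, 2.26 and 1.71 CPM. Gm14121 had the smallest adjusted p of the members in the Bai1 contrast by edgeR with no low-count filter. Its log2 fold change of Bai1 Tg pos over Bai1 Tg neg was 1.83 there (adjusted p = 0.194), so it did not pass. Gm14253, with 639 bases at 99.374% identity to Pdcd10, was at 0 in Mertk WT 3 and Bai1 Tg neg 2 and reached 6.2 CPM in Bai1 Tg pos 3. Reads of such genes may be shared with their near-identical copies, so these levels are uncertain. Id1, an inhibitor of helix-loop-helix transcription factors that responds to BMP signalling, read 25.6 to 159 CPM in the KO libraries and 29.2 to 103 CPM in WT, with wide, overlapping ranges. The long noncoding RNA Snhg11 read 3.71 CPM in KO 1, 1.53 CPM in WT 2 and 2.67 CPM in WT 3, and 0 in KO 3, KO 4, WT 1 and WT 4.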
